A study of Mus musculus with 6 samples.

Results

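The genes described here are 38 mouse genes of glucose uptake, glycolysis, lactate export and the pentose phosphate pathway, chosen by the known function of their products. The arrays tested 33 of them among 19936 genes in all, each through its brightest probe set that pairs with 1 gene symbol. Gapdh was read only by probe sets shared with other genes, and Gpi1, Pfkfb1, Eno1 and G6pdx were paired with no probe set and were not analysed here. The cells were pre-B cells of C57Bl6 mice, labelled wild-type and 4 weeks old, and transformed with BCR-ABL1, the oncogenic tyrosine kinase that defines Ph+ acute lymphoblastic leukaemia (ALL). Both groups therefore carried BCR-ABL1, and both carried the retroviral vector pMIG, either empty (the empty vector group) or with IKZF1, the gene of the lymphoid transcription factor Ikaros. Cells positive for the green fluorescent protein of the vector were sorted on day 3, and each group was run on 3 arrays of total RNA. The comparison addresses which transcripts of sugar metabolism differ when IKZF1 is added to leukaemic cells that already express Ikzf1. The species and isoform of the insert are not given in the labels. Whether replicates were separate cultures is not stated, so that p-values measure only how these samples spread, possibly for technical reasons.

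Glucose enters the cell through transporters of the SLC2A family and is trapped as glucose-6-phosphate by a hexokinase. Phosphofructokinase, an enzyme of 4 subunits drawn from the liver (PFKL), muscle (PFKM) and platelet (PFKP) types, then commits the sugar to glycolysis. Aldolase, triosephosphate isomerase and the enzymes down to pyruvate kinase turn it into pyruvate and ATP, lactate dehydrogenase can reduce the pyruvate to lactate, and monocarboxylate transporters carry lactate out. Glucose-6-phosphate may instead enter the pentose phosphate pathway, whose oxidative steps make NADPH and whose non-oxidative steps make and recycle the ribose of nucleotides. Rapidly dividing leukaemic cells are known for high glucose consumption, and many of these genes are textbook targets of the transcription factors HIF-1 and Myc.

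Values are log2(intensity + 1), and a difference is the IKZF1 mean minus the empty vector mean with its standard error (SE) and 3 arrays per group; the number of arrays limits the precision. Ikzf1 read 11.85, 11.78 and 11.98 with the empty vector (arrays 1 to 3, in this order throughout) and 13.09, 13.15 and 13.06 with IKZF1, a difference of 1.23 ± 0.07 (limma, Benjamini-Hochberg adjusted p = 0.0021). All 11 measured markers of pre-B cells had group means above background and 0 of them passed the threshold in either direction. On single arrays Rag2 fell below the background limits, with 5.53 on empty vector 2 (limit 6.12) and 6.04 on IKZF1 2 (limit 6.24). The summed intensity of the 11 markers ran from 62655 to 68978 in the empty vector group and from 63810 to 67390 in the IKZF1 group. Of the myeloid, T cell, erythroid and NK cell markers, 8 of 24 measured lay above background and 0 passed. The T cell markers above background were Cd2, Cd3e and, in the IKZF1 group, Cd8a. Cd2 was bright, with means of 12.06 in the empty vector group and 11.98 in the IKZF1 group. The summed T cell signal overlapped, with 3814 to 5344 in the empty vector group and 4087 to 4997 in the IKZF1 group. The erythroid markers above background were Tfrc, Epor and Klf1. The summed erythroid signal was 3712 to 5169 in the empty vector group and 5598 to 5866 in the IKZF1 group, and nearly all of it was Tfrc, the transferrin receptor gene of dividing cells in general (0.43, adjusted p = 0.15). Epor, Klf1 and Alas2 lay near background with overlapping groups. Within these bulk samples, fewer cells of a type and less RNA per cell cannot be told apart.

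The members past the threshold belong to phosphofructokinase, in the middle of glycolysis, and they were lower with IKZF1. Of the 33 members tested, 2 fell, 0 rose and 31 did not pass the threshold of an adjusted p under 0.05 (limma, Benjamini-Hochberg adjustment over all 19936 genes). Over all genes tested 1.13% fell and 1.12% rose. The 2 that fell were the subunit genes Pfkl and Pfkm. Arrays of the same replicate number deviated together from their group means, weakly for number 1 (r = 0.24) and more for 2 and 3 (0.60 and 0.66). These values cannot show that the arrays were paired. With replicate number as a block, 5 members were lower (Pfkl, Pfkm, Aldoa, Tpi1 and Pgk1) and 0 higher, where 3.85% of all genes were lower and 3.36% higher. The median difference of the 33 members was -0.05, beside 0.03 for all genes. In 11 members all 3 IKZF1 arrays lay below all 3 empty vector arrays, against 11.3% of all genes, and in 4 members all lay above, against 15.2%. The 11 include Hk1, whose direction depended on the probe set (below). Of the 33 members, 13 (39.4%) had an unadjusted p under 0.05, beside 18.4% of all genes. Among the 10 tested from aldolase to pyruvate kinase, 0 passed without the block and 3 were lower with it, and the median difference was -0.29. The 6 tested members of the pentose phosphate pathway had a median of 0.02, with 0 past the threshold in either fit.

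**Figure D1:**
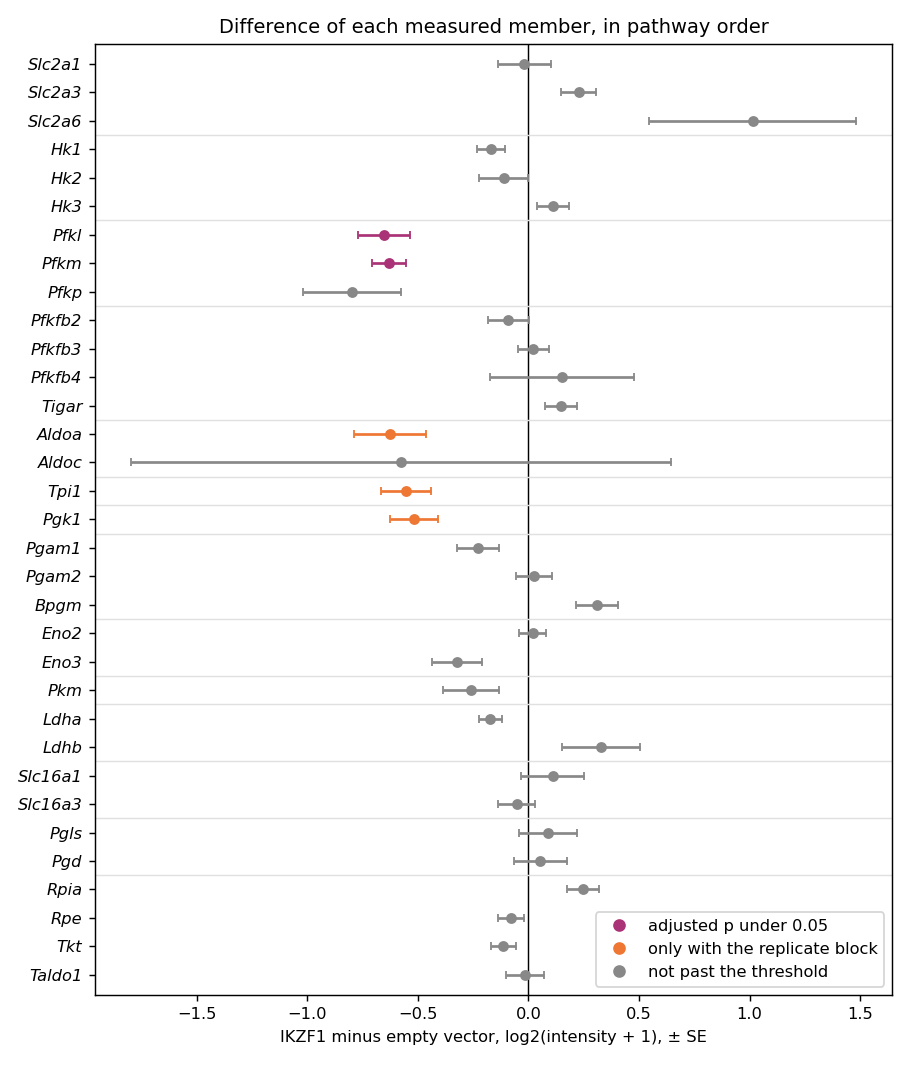
Difference of each tested member, IKZF1 minus empty vector in log2(intensity + 1), ordered by step of the pathway. Points are differences and bars are 1 SE with 3 arrays per group; Pfkl (-0.65) and Pfkm (-0.63) passed the threshold, and Aldoa, Tpi1 and Pgk1 did so only with replicate number as a block.

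All 3 phosphofructokinase subunits were lower with IKZF1 on every array. The muscle type subunit gene Pfkm read 8.90, 9.11 and 8.92 with the empty vector and 8.35, 8.38 and 8.31 with IKZF1. The IKZF1 arrays lay close together, and the groups were separated by more than the whole range of either. Pfkm fell by 0.63 ± 0.08 on the log2 scale, to 64.6% of its empty vector intensity (adjusted p = 0.017, and 0.012 with the block). The liver type subunit gene Pfkl read 10.56, 10.73 and 10.28 with the empty vector and 9.83, 9.89 and 9.90 with IKZF1. Empty vector 3 was the lowest of its group and still lay above each IKZF1 array. Pfkl fell by 0.65 ± 0.12, to 63.6% (adjusted p = 0.047, and 0.027 with the block). The platelet type subunit gene Pfkp had the largest difference of the 3 and did not pass. It read 10.73, 10.97 and 10.09 with the empty vector and 9.96, 9.67 and 9.76 with IKZF1, so that empty vector 3 lay only just above the highest IKZF1 array. Its difference was -0.80 ± 0.22 (adjusted p = 0.14, and 0.058 with the block). Leaving out empty vector 3 gave -1.05 (adjusted p = 0.0085), and with any other single array left out Pfkp did not pass (0.20 to 0.41).

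With 1 array left out in turn the differences stayed between -0.67 and -0.56 for Pfkm and between -0.77 and -0.55 for Pfkl, while most of these fits of 5 arrays lost the calls. Pfkm did not pass without empty vector 1 (adjusted p = 0.091), IKZF1 1 (0.099), IKZF1 2 (0.070) or IKZF1 3 (0.081), and it passed without empty vector 2 or empty vector 3. Among the fits with 1 array left out, Pfkl passed only in that without empty vector 3 (adjusted p = 0.0068). With empty vector 1 left out its adjusted p was 0.21, with empty vector 2 left out 0.082, with IKZF1 1 left out 0.17 and with IKZF1 2 or IKZF1 3 left out 0.15. Quantile normalization of the arrays gave Pfkl a difference of -0.62 and an adjusted p of 0.058, cyclic loess -0.61 and 0.069, and a fit of all probe sets together -0.65 and 0.068.

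The bases just before the start sites of Pfkl and Pfkm are shown because these genes carried the calls. Each is the 250 bases upstream of a RefSeq start on build GRCm38.p6, written 5′ to 3′ on the gene's strand. Capitals mark 2 kinds of short motif searched on both strands. The core bound by HIF-1 is ACGTG or GCGTG, which reads CACGT or CACGC on the other strand. The Ikaros core is TGGGAA, which reads TTCCCA on the other strand. Pfkl lies on the minus strand and its window is chr10:78009808-78010057. Pfkm has 4 starts in the table, and the window shown, chr15:98108221-98108470 on the plus strand, was picked after its matches were seen because it holds a match of each HIF-1 core.
Pfkl: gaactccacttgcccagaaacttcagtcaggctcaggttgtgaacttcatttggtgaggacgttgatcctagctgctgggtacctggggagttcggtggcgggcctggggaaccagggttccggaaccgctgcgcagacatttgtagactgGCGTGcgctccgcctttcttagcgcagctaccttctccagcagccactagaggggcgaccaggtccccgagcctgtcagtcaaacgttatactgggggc
Pfkm: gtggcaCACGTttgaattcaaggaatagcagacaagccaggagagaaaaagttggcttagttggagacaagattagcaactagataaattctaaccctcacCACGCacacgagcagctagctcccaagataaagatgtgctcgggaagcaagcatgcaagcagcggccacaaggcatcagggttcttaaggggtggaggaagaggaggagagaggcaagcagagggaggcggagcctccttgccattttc
The Pfkl window holds 1 HIF-1 core, which begins at -99 counted from the start, and the Pfkm window holds 2, at -244 and -149. Neither window holds TGGGAA. A match describes these letters only and says nothing of binding.

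Aldolase, triosephosphate isomerase and phosphoglycerate kinase, the steps that split the sugar and first return ATP, gave 3 members that were lower with the block and not without it. Aldoa, the main aldolase outside liver and brain, read 13.04, 13.34 and 12.70 with the empty vector and 12.38, 12.52 and 12.31 with IKZF1. The groups did not overlap, with empty vector 3 nearest to the IKZF1 arrays. Its difference was -0.63 ± 0.16, or 64.8% of the empty vector intensity (adjusted p = 0.12, 0.026 with the block). Tpi1, the gene of triosephosphate isomerase, read 12.76, 12.92 and 12.49 against 12.20, 12.22 and 12.09. The order was the same, and the lowest empty vector array was again array 3. Tpi1 had a difference of -0.55 ± 0.11 (adjusted p = 0.067, 0.022 with the block). Pgk1, which makes the first ATP of glycolysis, read 12.98, 13.24 and 12.84 against 12.51, 12.56 and 12.44, with no overlap. Pgk1 had a difference of -0.52 ± 0.11 (adjusted p = 0.068, 0.024 with the block).

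With any other single array left out, none of these 3 genes passed without the block (limma, adjusted p from 0.096 to 0.36). Without empty vector 3 each of them did. Aldoa then had -0.79 (adjusted p = 0.017), Tpi1 -0.67 (0.012) and Pgk1 -0.61 (0.023). In that fit 7 members were lower, where 2.94% of all genes were, and 1 was higher, where 1.81% were. The 7 were Pfkl, Pfkm, Pfkp, Aldoa, Aldoc, Tpi1 and Pgk1, and the 1 was Bpgm. Pgk1 was paired with 3 probe sets, of which 2 gave equal values and the other a difference of -0.50. Copies of Pgk1 elsewhere in the genome may share its probes, and their part was not tested.

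The windows of Aldoa, Tpi1 and Pgk1 are shown because these were the other members lower with the block. They are chr7:126799255-126799504 (minus strand; 1 of 3 starts of Aldoa, picked after its matches were seen), chr6:124814159-124814408 (minus strand, Tpi1) and chrX:106186850-106187099 (plus strand, Pgk1), with the same marks.
Aldoa: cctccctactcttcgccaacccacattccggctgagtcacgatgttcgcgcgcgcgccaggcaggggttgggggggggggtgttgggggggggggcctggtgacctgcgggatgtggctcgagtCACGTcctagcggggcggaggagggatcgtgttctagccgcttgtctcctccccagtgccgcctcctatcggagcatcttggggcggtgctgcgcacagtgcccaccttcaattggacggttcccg
Tpi1: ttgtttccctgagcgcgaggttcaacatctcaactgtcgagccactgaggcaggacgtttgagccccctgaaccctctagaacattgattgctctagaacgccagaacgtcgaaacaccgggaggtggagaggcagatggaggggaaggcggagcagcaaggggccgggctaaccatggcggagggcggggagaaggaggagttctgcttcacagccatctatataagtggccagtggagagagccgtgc
Pgk1: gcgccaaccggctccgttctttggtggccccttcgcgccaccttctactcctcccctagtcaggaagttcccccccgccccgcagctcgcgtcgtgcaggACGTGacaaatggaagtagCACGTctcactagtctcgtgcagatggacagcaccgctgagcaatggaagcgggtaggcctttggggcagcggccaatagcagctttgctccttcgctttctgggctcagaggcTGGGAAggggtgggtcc
Aldoa holds 1 HIF-1 core at -126, Pgk1 holds 2 at -150 and -131, and Tpi1 holds none of these letters in this window. Pgk1 alone of the 5 windows shown so far holds TGGGAA, at -17. Over the 55 promoters of 37 members in the table, 40 (72.7%) hold a HIF-1 core, beside 38.6% of all 32851 promoters of the same length, and base composition was not matched. By core, ACGTG is in 30.9% against 16.6% and GCGTG in 52.7% against 28.2%. The full E-box CACGTG, which contains ACGTG on both strands, is in 9.09% against 6.02%. TGGGAA is in 20.0% of member promoters and 21.6% of all. For the 5 members lower with the block, 7 of 10 promoters hold a HIF-1 core and 1 of 10 holds TGGGAA. The share with a HIF-1 core is 75.0% of the 8 promoters of the pentose phosphate members, of which 0 passed in either fit.

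Aldoc, the aldolase best known from brain, varied more between arrays of 1 group than any other member. It read 11.31, 12.25 and 7.29 with the empty vector and 9.73, 10.27 and 9.12 with IKZF1. Empty vector 2 was the highest of the 6 arrays and empty vector 3 the lowest, and the IKZF1 arrays lay between them. The highest empty vector array was 31.2-fold above the lowest, and the SD of the group was 2.63, exceeded by 5 of 19936 genes. The difference of -0.58 ± 1.22 was not past the threshold (adjusted p = 0.82, 0.64 with the block). Leaving out empty vector 3 gave -2.07 (adjusted p = 0.034), and leaving out empty vector 2 gave 0.41, so the direction rested on single arrays.

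**Figure D2:**
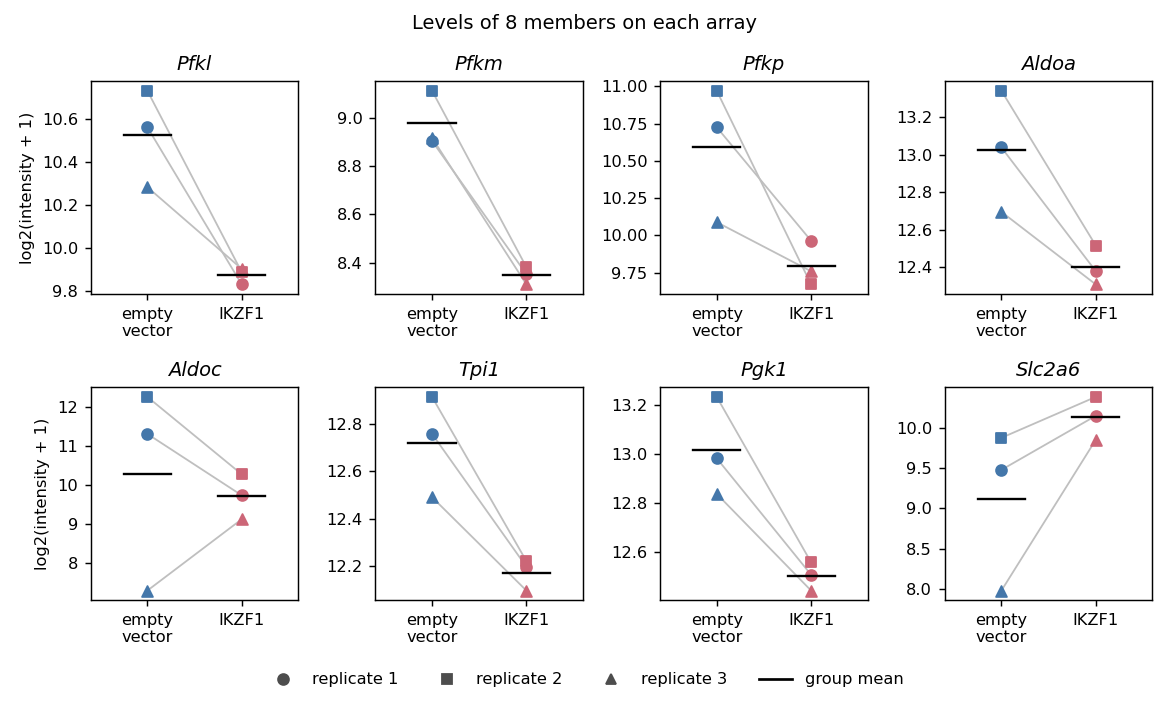
Log2(intensity + 1) of 8 members on each of the 6 arrays, with a marker shape for each replicate number, grey lines joining same-numbered arrays and black bars for group means; each panel has its own axis. The IKZF1 arrays of Pfkl, Pfkm, Pfkp, Aldoa, Tpi1 and Pgk1 all lie below the empty vector arrays, and Aldoc and Slc2a6 spread widest within the empty vector group.

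Below Pgk1 no tested member of glycolysis passed in either fit. Gapdh, whose product oxidises the triose phosphate, was read only by 25 probe sets with 4 to 8 symbols each, so copies of the gene cannot be told apart from it. They had differences of -0.08 to -0.06 (adjusted p between 0.47 and 0.57), at levels of 13.42 to 14.20 where the brightest probe set of any gene reached 14.52. The phosphoglycerate mutase gene Pgam1 read 12.63, 12.74 and 12.41 against 12.31, 12.44 and 12.35, a difference of -0.23 ± 0.10 (adjusted p = 0.27). Its groups overlapped through empty vector 3, while a pair of further probe sets with equal values gave -0.25 and no overlap. Pgam2, the muscle form, had 0.02 ± 0.08 (adjusted p = 0.89).

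Bpgm, whose product makes 2,3-bisphosphoglycerate in a side loop of glycolysis, pointed the other way. It read 6.57, 6.45 and 6.77 against 6.97, 6.92 and 6.84. All 3 IKZF1 arrays lay above the empty vector arrays, and empty vector 3 was the nearest to them. The difference of 0.31 ± 0.09 did not pass (adjusted p = 0.16, 0.11 with the block). Leaving out empty vector 3 gave 0.40 (adjusted p = 0.044), and with any other single array left out Bpgm did not pass (0.24 to 0.44).

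Of the enolases, Eno3, the muscle form, read 7.86, 8.12 and 7.69 against 7.52, 7.61 and 7.57, with all IKZF1 arrays lower (-0.32 ± 0.11, adjusted p = 0.21, 0.090 with the block). Eno2, the neuronal form, stayed within the background range in both groups, which 95% of 1190 olfactory and vomeronasal receptor genes set at 6.12 for the empty vector and 6.24 for the IKZF1 group. Pkm, the gene of the pyruvate kinase of dividing cells, read 12.41, 12.65 and 12.18 against 12.15, 12.26 and 12.04. Its groups overlapped (-0.26 ± 0.13, adjusted p = 0.33, 0.091 with the block). These probe sets do not separate the splice forms of Pkm.

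Lactate dehydrogenase A is the form that favours lactate. Ldha read 13.96, 13.95 and 13.95 with the empty vector and 13.78, 13.76 and 13.79 with IKZF1. Arrays of each group nearly coincided and the groups did not overlap, yet the difference was small, -0.17 ± 0.05 (adjusted p = 0.16, 0.14 with the block). It passed only when the prior variance followed intensity. Its level lay near the upper end of the array, where intensity may be compressed, and this was not tested. Ldhb, the form that favours pyruvate, had group means within the background range, though IKZF1 1 and IKZF1 2 read 6.27 and 6.33, just above it. Its difference was 0.33 ± 0.18 with overlapping groups (adjusted p = 0.37), and a further Ldhb probe set gave 0.31 with all IKZF1 arrays higher (adjusted p = 0.18 among all probe sets). The lactate transporter genes Slc16a1 (0.11 ± 0.14, adjusted p = 0.70) and Slc16a3 (-0.05 ± 0.08, adjusted p = 0.75) had overlapping groups. The window upstream of Ldha, chr7:46845554-46845803 on the plus strand (1 of 2 starts, picked likewise), is shown because it holds the full E-box CACGTG. The other 5 windows shown do not hold it. A Pfkm window that is not shown, chr15:98092339-98092588, holds CACGTG at -136.
Ldha: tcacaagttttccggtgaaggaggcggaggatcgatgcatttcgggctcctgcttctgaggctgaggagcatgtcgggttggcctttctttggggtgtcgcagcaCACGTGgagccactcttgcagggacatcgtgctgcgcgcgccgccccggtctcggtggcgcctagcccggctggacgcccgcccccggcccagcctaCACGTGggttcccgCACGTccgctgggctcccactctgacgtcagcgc
The Ldha window holds 5 matches, 2 pairs of which are the same E-box CACGTG read on either strand. Nothing about the difference of Ldha is drawn from them.

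No gene of glucose uptake or phosphorylation passed in either fit. Slc2a1, the gene of the general glucose transporter GLUT1, read 11.67, 11.46 and 11.21 against 11.39, 11.50 and 11.40. Its IKZF1 arrays lay inside the range of the empty vector arrays, and the difference was -0.02 ± 0.12 (adjusted p = 0.94). Slc2a3, the gene of the high-affinity transporter GLUT3, read 6.10, 6.29 and 6.11 against 6.32, 6.49 and 6.37, with all IKZF1 arrays higher by a small amount close to background (0.23 ± 0.08, adjusted p = 0.21, 0.081 with the block). Slc2a6, the gene of a transporter of lysosomal membranes, had the largest difference upward of all members and did not pass. It read 9.48, 9.87 and 7.99 against 10.15, 10.38 and 9.85. Empty vector 3 stood far below the others, and empty vector 2 lay just above IKZF1 3. The difference was 1.01 ± 0.47 (adjusted p = 0.31, 0.081 with the block). Leaving out empty vector 3 gave 0.45 (adjusted p = 0.24).

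Hk2, the inducible hexokinase of many tumours, read 8.82, 8.52 and 8.88 against 8.70, 8.52 and 8.67, with overlapping groups (-0.11 ± 0.11, adjusted p = 0.61). Hk3 lay within the background range (0.11 ± 0.07, adjusted p = 0.46). Hk1, the hexokinase of most cells, had no settled direction. Its brightest probe set with 1 symbol read 13.37, 13.41 and 13.44 against 13.24, 13.16 and 13.31, all lower with IKZF1 (-0.17 ± 0.06, adjusted p = 0.23). That probe set pairs with 1 accession only, which is also held by 16 further Hk1 probe sets that carry the ribosomal protein gene Rpl17, and these had differences of -0.31 to -0.09. Their empty vector means ran from 12.2 to 13.7, a range that includes the mean of the brightest probe set with 1 symbol. Whether that probe set reads Rpl17 was not tested. The probe set paired with RefSeq mRNAs of Hk1 holds that accession too, beside others. It read 9.70, 9.70 and 9.06 against 9.89, 9.75 and 9.56, with overlapping groups and a difference of 0.25 ± 0.19 (adjusted p = 0.53 among all probe sets). It was chosen after the values were seen.

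The enzymes that set fructose-2,6-bisphosphate, the strongest known activator of phosphofructokinase, did not pass in either fit. Pfkfb2 had -0.09 ± 0.09 (adjusted p = 0.62) and Pfkfb3, the form of high kinase activity, 0.02 ± 0.07 (adjusted p = 0.88). Pfkfb4 read 8.24, 8.58 and 7.39 against 8.25, 8.56 and 7.85, with array 3 the lowest and array 2 the highest of both groups (0.15 ± 0.32, adjusted p = 0.82). Tigar, whose product lowers fructose-2,6-bisphosphate, had 0.15 ± 0.07 (adjusted p = 0.34).

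No member of the pentose phosphate pathway passed in either fit, and differences ran from -0.11 to 0.25. Of the oxidative branch, Pgls, the lactonase gene, had 0.09 ± 0.13 and Pgd, the gene of the second NADPH-forming step, 0.05 ± 0.12, both with overlapping groups. Rpia, which makes ribose-5-phosphate, had the largest difference and the smallest p. It read 10.23, 10.21 and 10.26 against 10.60, 10.38 and 10.46. All IKZF1 arrays were higher and the empty vector arrays nearly coincided (0.25 ± 0.07, adjusted p = 0.15, 0.095 with the block). Tkt, the transketolase gene, read 10.48, 10.46 and 10.45 against 10.39, 10.35 and 10.30, each IKZF1 array slightly lower (-0.11 ± 0.06, adjusted p = 0.34). The epimerase gene Rpe was also lower on each IKZF1 array (-0.08 ± 0.06, adjusted p = 0.51), and Taldo1, the transaldolase gene, had -0.02 ± 0.09 with overlapping groups.

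Isoforms of a step were compared by their log2 ratio on the same array, which describes unequal change and not which isoform is more abundant. Of 22 possible pairs 17 were measured. In 4 pairs the groups did not overlap, each with an exact permutation p of 0.1 (2-sided), the smallest that 3 arrays against 3 allow, and an adjusted p of 0.42 over the 17 pairs. Of all single genes, 11.3% had all IKZF1 arrays lower and 15.2% all higher. The share over other gene pairs was not counted, so the 4 pairs do not stand out. The ratio Slc2a1/Slc2a6 was 2.20, 1.58 and 3.23 with the empty vector and 1.24, 1.12 and 1.55 with IKZF1. It was lower on every IKZF1 array by -1.03 ± 0.50 in the mean, and by -0.59 without empty vector 3. Slc2a1 to Slc2a3 differed by -0.25 ± 0.15, and Eno2 to Eno3 by 0.34 ± 0.13. The ratio of Hk1 to Hk3 differed by -0.28 ± 0.10 and by 0.14 with the Hk1 probe set of RefSeq mRNAs. Slc2a3, Hk3 and Eno2 lay at or near background, so these last ratios compare a gene with a signal close to background. Pairs of the same step can share a member, so the 17 ratios are not independent, and directions were not counted over other gene pairs. Taken within same-numbered arrays, 11 of the 17 ratios differed in 1 direction in all 3 pairs. The ratio of Hk2 to Hk3 was among them although its groups overlapped, with a mean of -0.22 and an SD of 0.03 over the 3 pairs (unpaired exact permutation p = 0.3), and Hk3 lay within background.

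The phosphofructokinase ratios had overlapping groups, and none kept 1 direction in all 3 pairs. Pfkl to Pfkm was 1.66, 1.62 and 1.36 with the empty vector and 1.48, 1.50 and 1.59 with IKZF1. The ranges overlapped, and the difference was -0.02 ± 0.10 (exact permutation p = 0.8). For Pfkl to Pfkp it was 0.14 ± 0.17 (exact permutation p = 0.4) and for Pfkm to Pfkp 0.17 ± 0.24 (exact permutation p = 0.6). With 3 arrays per group these values leave room for unequal change of the size of the SEs. The ratio Aldoa/Aldoc had a difference of -0.05 ± 1.37 (exact permutation p = 1.0) that became 1.28 without empty vector 3. The ratio of Ldha to Ldhb (-0.50 ± 0.22, overlapping groups, exact permutation p = 0.2) sets a gene near the top of the array against one close to background, so its size is not a measure of unequal change.

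**Figure D3:**
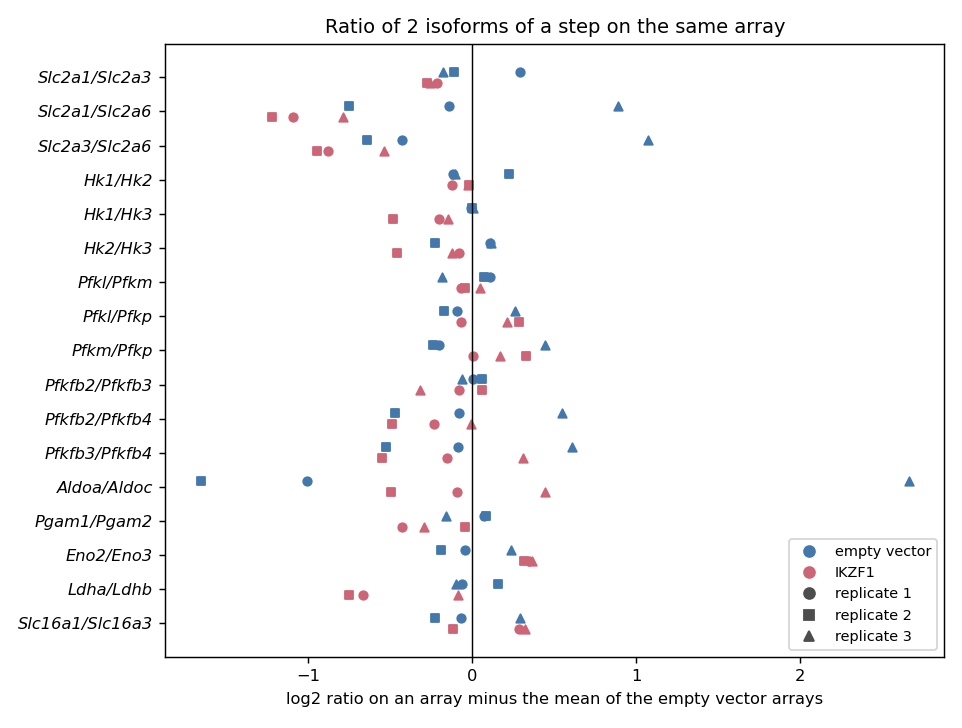
Log2 ratio of isoforms of the same step on each array, minus the mean ratio of the empty vector arrays, with 1 point per array and a marker shape for each replicate number. The Pfkl to Pfkm ratio overlaps between groups, while Slc2a1 to Slc2a6 is lower on each IKZF1 array and Aldoa to Aldoc is far higher on empty vector 3 than on the other arrays.

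The spread within the empty vector group was itself uneven over the members. A range over 1 on the log2 scale was reached by 3 of 33 members (9.09%), Aldoc, Slc2a6 and Pfkfb4, and by 3.62% of all genes. In all 3, empty vector 2 was the highest and empty vector 3 the lowest array. Of the 27 tested members outside the pentose phosphate pathway, 11 (40.7%) had this order, beside 25.2% of all genes. Aldoc, Slc2a6 and Pfkfb4 are counted in this share and in those that follow, so the shares are no support apart from these genes. The same order, array 2 highest and array 3 lowest, was found in the IKZF1 group for 10 of the 27 (37.0%) and in both groups for 7 (25.9%), beside 23.4% and 9.32% of all genes. The 7 were Slc2a6, Pfkfb4, Aldoa, Aldoc, Tpi1, Pgk1 and Pkm. What the replicate numbers mark is not given in the labels.

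Genes of neighbouring steps of the same metabolism were listed with the members. Of 14 genes of pyruvate entry into mitochondria, 0 passed without the block and 4 (28.6%) were lower and 1 higher with it, where 3.85% and 3.36% of all genes were. In 8 of the 14 (57.1%) all IKZF1 arrays lay below the empty vector arrays, beside 11.3% of all genes, and the median difference was -0.22. Those lower were the pyruvate dehydrogenase kinase genes Pdk1 (-0.78, adjusted p = 0.16, 0.037 with the block) and Pdk3 (-0.51, 0.059 and 0.048), whose products hold pyruvate out of the mitochondrial pathway, Dld (-0.39, 0.12 and 0.025), a subunit of the dehydrogenase complex, and Mpc1 (-0.32, 0.23 and 0.046), a subunit of the mitochondrial pyruvate carrier. The kinase gene Pdk2 was higher (0.43, 0.091 and 0.032). Kinase genes of this list thus moved in both directions with the block.

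Of 18 genes of gluconeogenesis and glycogen, 1 rose and 17 did not pass (median difference -0.26), where 1.12% of all genes rose. With the block 2 (11.1%) were lower and 1 higher, where 3.85% and 3.36% of all genes were. Phka1, a regulatory subunit of phosphorylase kinase, which switches on glycogen breakdown, read 6.12, 5.56 and 6.96 against 8.32, 8.11 and 8.24. Empty vector 1 and 2 lay at or below the background limit, empty vector 3 somewhat above it and every IKZF1 array well above it. Phka1 rose by 2.01 ± 0.33 (adjusted p = 0.037, 0.014 with the block). With 1 array left out its difference stayed between 1.68 and 2.38. It passed without empty vector 3 and lost the call without empty vector 1 (adjusted p = 0.18), empty vector 2 (0.054), IKZF1 1 (0.15), IKZF1 2 (0.13) or IKZF1 3 (0.13), and with all probe sets fitted together (0.057). Pck2, the mitochondrial form of the enzyme that makes phosphoenolpyruvate, was lower with the block (-0.80, adjusted p = 0.087 and 0.018 with it). Fbp1, which reverses the phosphofructokinase step, was also lower with the block (-0.49, 0.23 and 0.024). Its groups overlapped near background. The empty vector mean of 6.47 lay just above the limit of 6.12, and the IKZF1 mean of 5.98 lay below that of 6.24.

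Of 23 other isoforms of the same steps 0 passed, and the smallest p was that of Slc2a8 (0.30, adjusted p = 0.077), with all IKZF1 arrays higher. With the block 1 was lower, a share of 4.35% beside 3.85% of all genes. It was Slc2a9, the gene of a urate transporter of the glucose transporter family (-0.54, adjusted p = 0.091 and 0.034). Of 13 genes of the branches to hexosamine, glycerol and nucleotide 0 passed in either fit. The smallest p there was that of Gpd1l (0.36, adjusted p = 0.077). Of 21 regulators of glycolytic genes 0 passed, and Myc was lower with the block (-0.39, adjusted p = 0.20 and 0.041), a share of 4.76%, near that of all genes. The smallest p of these regulators was that of Stk11 (0.20, adjusted p = 0.13), with all IKZF1 arrays higher. Hif1a had 0.10 (adjusted p = 0.37) and Txnip, which restrains glucose uptake, -0.12 (adjusted p = 0.76).

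**Figure D4:**
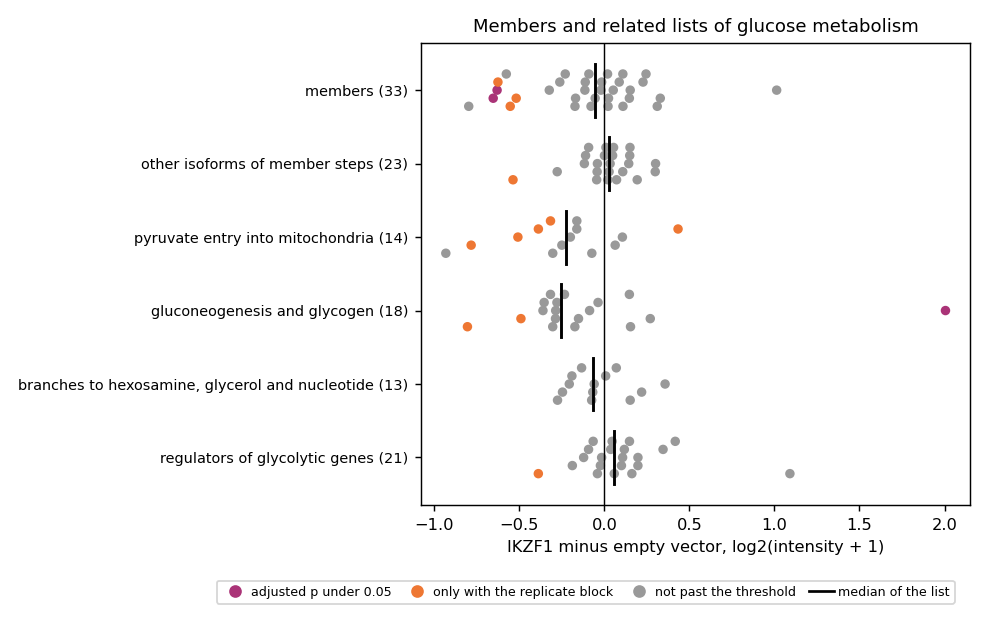
Differences, IKZF1 minus empty vector in log2(intensity + 1), of the members and of 5 related gene lists; each point is a gene and the bar is the median of the list. Medians run from -0.26 (gluconeogenesis and glycogen) to 0.06 (regulators), and Phka1 at 2.01 is the point farthest right.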

How the data were processed

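RNA was measured on Affymetrix arrays, 3 per group, grouped by the transduction in the labels. The authors deposited linear probe set intensities, from 11.1 to 23523, which per the submitters' processing notes came from RMA. The RMA software is not given in the sources used here. RMA includes quantile normalization, which reduces shifts common to most genes, and the scale was read from the values. Of 35421 probe sets, 21789 pair with 1 gene symbol and 1621 with several, and 12011 are unnamed here. Fold changes are on the log2(intensity + 1) scale, which understates those of dim genes. Groups were compared with limma 3.58.1 (lmFit, eBayes, 2-sided) in R 4.3.3 on the brightest probe set with 1 symbol per gene, with no filter on level and Benjamini-Hochberg adjustment over 19936 genes. The fit was tested on simulated data. Same-numbered arrays deviated together from their group means (r = 0.24, 0.60 and 0.66, with other pairs from -0.68 to 0.11). Deviations from a group mean cancel within the group, so positive values for some pairs force negative values for others. The contrast therefore cannot show that the arrays were paired. The numbers were treated as pairs, and the blocked values, which depend on that choice, stand beside results they change. Members, lists, markers, motifs and the alternatives, apart from those said to be added later, were chosen with earlier results of these data known, and counts are no independent support. The rule for named genes took every member, the members of related lists past the threshold in either fit and some of those with the smallest p. Hif1a, Txnip and Egln3 were named outside this rule. Upstream sequences are RefSeq's on GRCm38.p6 and 37 of 38 members matched.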

Additional observations from a re-analysis of the deposited data

How the results depend on the processing

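Against 2 members lower and 0 higher, 1 was lower after quantile normalization, after cyclic loess and with all probe sets fitted together. With a prior that followed intensity 5 were lower, with the replicate block 5, and with array weights 6 were lower and 2 higher; the cause was not tested. Leaving out 1 array in turn gave 0 to 7 lower and 0 to 1 higher, with fewer arrays in each fit. The count was 0 without empty vector 1, IKZF1 1, IKZF1 2 or IKZF1 3, 1 without empty vector 2 and 7 without empty vector 3. Over all genes, 225 lower and 223 higher became 792 and 689 with array weights, 768 and 670 with the block, and 2 to 587 and 21 to 360 with 1 array left out. With arrays centred on their medians 232 were lower and 170 higher, and 2 and 0 of the members. A pseudocount of 16, a mean level of at least 6 and the mean of probe sets left the members' counts at 2 and 0. The ratio of Hk1 to Hk3 reversed to 0.14 with the Hk1 probe set chosen after seeing the data. In all, 12 members and 6 isoform ratios had the other sign in at least 1 setting. Members with group means within the background range (Hk3, Eno2 and Ldhb) limit what their values show.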

Other observations

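The array order of the widely spread members was compared with that of other genes whose values had been seen. Egln3, a HIF prolyl hydroxylase gene that is itself a known target of HIF-1, read 9.42, 9.70 and 5.89 with the empty vector and 9.49, 9.79 and 9.01 with IKZF1. As with Aldoc, Slc2a6 and Pfkfb4, array 2 was the highest and array 3 the lowest in both groups, and its difference of 1.09 ± 0.98 did not pass (limma, adjusted p = 0.58). The recombination genes Rag1 and Rag2 had the opposite order in both groups, with array 3 the highest and array 2 the lowest. Other pre-B cell markers were mixed. Cd24a, Ebf1 and Pax5 also had this opposite order in both groups, and Cd79b had the order of Aldoc in both. How many of all genes had the opposite order was not counted. Rag1 read 7.93, 6.52 and 9.70 with the empty vector and 8.83, 8.04 and 9.55 with IKZF1. For Rag2 the values were 6.91, 5.53 and 8.95 against 7.15, 6.04 and 7.89. Both were highest on empty vector 3, where Aldoc and Slc2a6 were lowest.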
